A study of Mus musculus with 2 samples.

Results

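Serine/arginine-rich (SR) proteins and the Tra2 proteins are RNA-binding splicing factors. They bind enhancer sequences within exons through RNA recognition motifs, and their arginine- and serine-rich domains help recruit the spliceosome to nearby splice sites. Many of their genes carry a poison exon, a highly conserved exon that brings a premature stop codon into the mRNA when it is included and so exposes the mRNA to nonsense-mediated decay, and several of the proteins are known to promote inclusion of the poison exon in their own mRNA. Ptbp1, the polypyrimidine tract-binding protein depleted here, is an RNA-binding repressor of many exons.

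Expression and splicing of 10 of these genes were examined: Srsf1, Srsf2, Srsf3, Srsf4, Srsf5, Srsf6, Srsf7, Srsf11, Tra2a and Tra2b. They were taken as a listed family, by a rule that uses no measured value, from 13668 genes with a RefSeq transcript level in the control and 13981 in the knockdown sample. For splicing, all exon trios (a middle segment with its flanking exons, the unit that SpliceTrap quantifies) within each gene on its strand were taken, which gave 105 trios with 74 distinct middle segments out of 228333 trios in the files. All 105 had at least 20 reads in each library. Their lowest read numbers were 303 in the control and 201 in the knockdown library and their medians 5167 and 3990, so the minimum removed no member, and 145628 trios of all genes passed it.

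The samples were N2A cells, a mouse neuroblastoma line, transfected either with a control shRNA or with an shRNA against Ptbp1 and collected after 3 days. Total RNA was made into strand-specific libraries and sequenced as paired reads of 100 bases. Each group had 1 library, so no difference below has a replicate check, and each interval covers the counting error of reads only. The intervals compare these libraries and not the conditions.

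The target gene was checked first. Ptbp1 had a level of 438 ppm (parts per 1e6 of the summed read depth times length of all transcripts of the library) in the control and 132 ppm in the knockdown library, a log2 ratio of -1.73. Ptbp2, its neuronal paralog, had 47.5 and 81.6, a log2 ratio of 0.78. Among neuronal and neuroblastoma markers, Tubb3 had 400.0 and 293 ppm, Stmn2 95.8 and 79.8 ppm and Chga 115 and 98.2 ppm. Gap43 (79.4 and 134 ppm), Nes (4.27 and 8.96), Dbh (38.2 and 154) and Th (0.37 and 1.75) were higher in the knockdown library, with log2 ratios of 0.76, 1.07, 2.02 and 2.26, and Dcx was near 0 at 0.05 and 0.07. The summed levels of fibroblast, astrocyte, immune and endothelial markers were at most 1.57 ppm in either library. The files held 74.4 M (1e6) junction reads for the control and 58.3 M for the knockdown library over distinct splice junctions.

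Sequences around the poison exons of the Tra2 genes, Srsf3 and Srsf7 are given first, because inclusion of such an exon puts a stop codon into the mRNA. Sequences were read from the mm9 genome on the strand of the gene. The last 60 bases of the intron before each exon are in lower case and the first 10 bases of the exon in capitals. The regions are chr6:49203098-49203167 on the minus strand for the 306-nt exon of Tra2a, chr16:22259325-22259394 on the minus strand for the 276-nt exon of Tra2b, chr17:29176339-29176408 on the plus strand for the 456-nt exon of Srsf3 and chr17:80604412-80604481 on the minus strand for the 460-nt exon of Srsf7.
Tra2a: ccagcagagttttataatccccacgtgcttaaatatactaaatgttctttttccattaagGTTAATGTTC
Tra2b: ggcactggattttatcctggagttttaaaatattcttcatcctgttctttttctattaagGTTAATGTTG
Srsf3: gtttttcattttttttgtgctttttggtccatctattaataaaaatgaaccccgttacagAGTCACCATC
Srsf7: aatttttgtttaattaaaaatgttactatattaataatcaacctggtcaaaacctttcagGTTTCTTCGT
The acceptors of the Tra2 paralogs were alike. Without gaps, 24 of the 26 bases from 16 intron bases to 10 exon bases were identical between them, and 40 of the 70 bases over the whole printed stretch.

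Each of these exons holds a stop codon in the frame of the coding exon before it. The stop starts at base 142 of the Tra2a exon, base 79 of the Tra2b exon, base 32 of the Srsf3 exon and base 26 of the Srsf7 exon. It is shown in capitals within 27 bases of the exon, at chr6:49202952-49202978, chr16:22259242-22259268, chr17:29176418-29176444 and chr17:80604382-80604408. The retained intron of Srsf1 (chr11:87862757-87862783, plus strand, stop at base 52 of the intron) and the exons of 109 nt and 64 nt in Srsf11 (chr3:157687161-157687187 and chr3:157687667-157687693, minus strand, stops at bases 21 and 45) are shown in the same way.
Tra2a, 306 nt: agattggtcagaTAGaagcacttgaat
Tra2b, 276 nt: ctcaggaataagTGAagctgaaatttg
Srsf3, 456 nt: ctcaccaccctcTGAatctgcattagc
Srsf7, 460 nt: agtcagtcgcctTGAttcagaatgtca
Srsf1, 196 nt: atacagttttctTAAcagtggaatttg
Srsf11, 109 nt: cctggttcagccTGAactatataccag
Srsf11, 64 nt: aaaaaatactctTGAcgcatgaaaatt
All 7 distinct cassette-class exons without annotated coding sequence in these genes have an AG before them and a GT after them.

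Because Ptbp1 binds pyrimidine-rich RNA, the share of overlapping 3-base windows made only of C and T was counted in up to 250 intron bases before each exon. It was 21.8% before the Tra2a exon, 21.0% before the Tra2b exon, 20.6% before the Srsf3 exon and 14.04% before the Srsf7 exon, whose intron has 180 bases. Over 6558 cassette-class exons with reads in both libraries the median was 19.0%, with quartiles at 15.7% and 23.4%. The Tra2a value was higher than that of 65.1% of these exons, the Tra2b value than 60.7%, the Srsf3 value than 58.2% and the Srsf7 value than 15.8%. Further noncoding exons described below had 21.4% (109-nt exon of Srsf11, higher than 63.1%) and 17.7% (104-nt exon of Srsf2, higher than 39.4%). The 65-nt exon of Tra2b had 16.1% (higher than 27.6%). A relation between this share and the change in inclusion was not tested. The motif CTCTCT, searched on the transcript strand, was in none of the windows before the exons named here. It was in 17.0% of the windows of all cassette-class exons.

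Noncoding exons of Tra2a, Tra2b, Srsf3 and Srsf2 and a retained intron of Srsf1 had higher inclusion in the Ptbp1 knockdown library than in the control. For the 460-nt exon of Srsf7, the 109-nt exon of Srsf11 and a 65-nt exon of Tra2b the interval of the difference included 0. Inclusion is given below as the percent of transcripts with the middle segment (PSI) by SpliceTrap after its correction, and as junction inclusion, the mean of both inclusion junctions over that mean plus the skipping junction, with 95% Newcombe intervals of the difference. Of the 8 cassette-class trios with a middle exon without annotated coding sequence, 5 had an interval above 0 and 0 had an interval below 0. The background over all such trios was 7.78% above 0 and 6.04% below 0. The 8 trios held at least 667 reads in each library, and among noncoding cassette-class trios with at least 500 reads in each library the background was 10.8% above and 7.79% below 0. Deeper trios give narrower intervals, and the deepest of the 8, that of Srsf2, held 20467 reads in the control. Depth was not matched beyond this minimum, so the comparison mixes depth with change. Counted by distinct exon, 4 of 7 were above 0, and the median difference of the 7 was 2.17 points beside 0 points over all 2186 noncoding cassette-class trios.

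**Figure D1:**
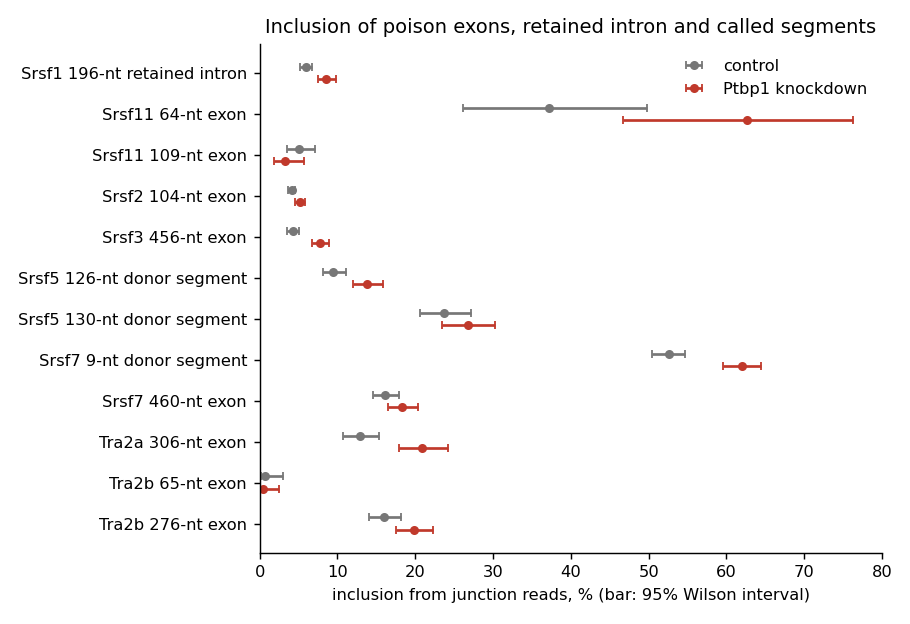
Junction inclusion in percent (horizontal axis) of the noncoding exons, the retained intron, donor segments and the called exon of Srsf11. Values are for the control (grey) and Ptbp1 knockdown (red) libraries, with 95% Wilson intervals of the junction reads. Tra2a went from 12.9% to 20.9% with intervals that do not overlap, whereas the intervals of the Srsf7 460-nt exon overlap.

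Tra2a and Tra2b encode the mammalian Transformer-2 proteins, sequence-specific activators of exons with GA-rich enhancers. The 306-nt exon of Tra2a (chr6:49202802-49203107) had a PSI of 26.9% in the control and 34.5% in the knockdown library. Its upstream junction had 186 reads in the control and 237 in the knockdown library, its downstream junction 22 and 23, and its skipping junction 703 and 493. Junction inclusion was 12.9% and 20.9%, a difference of 7.98 points with an interval from 4.08 to 11.97. Taken alone against skipping, the upstream junction went from 20.9% to 32.5% (interval of the difference 7.22 to 15.9 points) and the downstream junction, with few reads, from 3.03% to 4.46% (-0.69 to 3.796), an interval that includes 0. The junctions were not tested against each other.

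The 276-nt exon of Tra2b (chr16:22259059-22259334), which the annotation places in a transcript class subject to nonsense-mediated decay, was in a pair of trios that share the same junctions. Its PSI was 18.1% in one and 18.3% in the other in the control, and 21.3% and 21.4% in the knockdown library. Its upstream junction had 202 and 219 reads, its downstream junction 214 and 226, and its skipping junction 1091 and 901. Junction inclusion was 16.01% and 19.80%, with an interval of the difference from 0.74 to 6.87 points, and here both junctions gave intervals above 0. A second noncoding exon of Tra2b, of 65 nt, was nearly always skipped, with PSI of 0.6% and 0.3% and 212 and 223 skipping reads.

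Srsf3 encodes the smallest SR protein, which has a single RNA recognition motif. Its 456-nt exon (chr17:29176399-29176854) had a PSI of 7.8% in the control and 11.3% in the knockdown library, a difference of 3.5 points that is less than the 5 points used here as the threshold. The upstream junction had 176 and 233 reads, the downstream junction 82 and 106, and the skipping junction 2919 and 2018. Junction inclusion was 4.23% and 7.75%, a difference of 3.52 points with an interval from 2.21 to 4.88. The transcript estimates moved the same way: the noncoding RefSeq isoform with this exon held 17.5% of the RefSeq read depth of Srsf3 in the control and 40.0% in the knockdown library, or 16.1% and 33.9% with assembled transcripts included. These isoform shares come from the same reads and carry no error estimate here.

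Srsf7 encodes an SR protein with a zinc knuckle beside its RNA recognition motif. Its 460-nt exon (chr17:80603962-80604421) had a PSI of 19.6% and 21.3%. The upstream junction had 436 and 398 reads, the downstream junction 186 and 152, and the skipping junction 1615 and 1226. Junction inclusion was 16.1% and 18.3%, and the interval of the difference, -0.36 to 4.75 points, includes 0. The upstream junction alone gave 0.52 to 6.001 points. The noncoding RefSeq isoform of Srsf7 is listed at 0 in both libraries although these junctions carry reads.

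In Srsf2, which encodes the nuclear speckle protein SC35, the 104-nt exon (chr11:116712962-116713065) lies after the annotated stop codon, in a transcript annotated as subject to nonsense-mediated decay. Its PSI was 6.2% in the control and 7.4% in the knockdown library. The upstream junction had 259 and 242 reads, the downstream junction 357 and 314, and the skipping junction 7161 and 5118. The difference in junction inclusion was 1.03 points with an interval from 0.30 to 1.78.

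**Figure D2:**
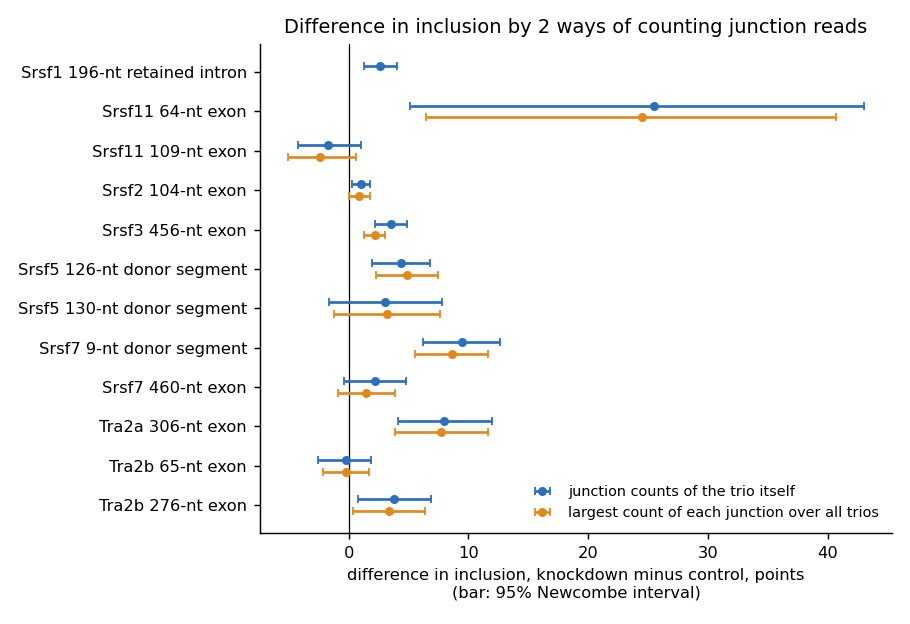
Difference in junction inclusion in points, knockdown minus control (horizontal axis), with 95% Newcombe intervals. Blue uses the junction counts of the trio itself and orange the largest count of each junction over all trios. Both ways leave the Srsf7 460-nt exon and the Srsf11 109-nt exon across 0, and the Srsf3 difference is 3.52 points by the first and 2.16 by the second.

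The deposited count of a junction was not the same in each trio that holds it. With the largest count of each junction over all trios, the same 5 of 8 noncoding trios were above 0, beside a background of 10.8% among those with at least 500 reads. The difference was then 7.71 points for Tra2a (3.89 to 11.6), 3.35 for Tra2b (0.33 to 6.40), 2.16 for Srsf3 (1.29 to 3.06) and 0.89 for Srsf2 (0.05 to 1.76). The Srsf3 and Srsf2 skipping junctions had 6806 and 7378 reads in the control by this count.

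Srsf11 encodes a larger SR-related protein that associates with U2AF. Its 109-nt exon (chr3:157687087-157687195), in a transcript annotated as subject to nonsense-mediated decay, had a PSI of 7.6% and 5.5%. The upstream junction had 52 and 20 reads, the downstream junction 9 and 4, and the skipping junction 576 and 353, and the interval of the difference was -4.21 to 1.05 points. A 64-nt exon (chr3:157687662-157687725) lies in the intron before it and was measured against splicing from the preceding exon directly to the 109-nt exon. Its PSI was 18.6% and 33.7% in one trio and 26.1% and 40.8% in another with the same junctions. The counts were small: 7 and 10 reads upstream, 38 and 37 downstream, and 38 and 14 skipping. Junction inclusion was 37.2% and 62.7%, with an interval of the difference from 5.14 to 43.0 points. The skipping junction of the 64-nt exon is the upstream junction of the 109-nt exon, given above with 52 and 20 reads. The results of both exons therefore share reads and are not independent. The annotation lists the 64-nt exon in protein-coding and retained-intron transcripts.

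Srsf1 encodes SF2/ASF, an SR protein known as an activator of exons. Its 196-nt intron (chr11:87862718-87862913) was retained at a PSI of 8.0% in the control and 10.8% in the knockdown library. The exon-intron boundaries had 205 and 213 reads in the control and 192 and 186 in the knockdown library, and the spliced junction 3305 and 2015. Junction retention was 5.95% and 8.58%, a difference of 2.63 points with an interval from 1.25 to 4.07. Over all 842 retained-intron trios 9.14% had an interval above 0. The RefSeq isoform that keeps this intron held 11.97% of the Srsf1 read depth in the control and 27.04% in the knockdown library. These isoform shares are above the junction retention in both libraries, come from the same reads and carry no error estimate here. The annotation lists this intron within a protein-coding transcript.

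Of the 105 trios, 7 changed by at least 5 points of PSI, all toward inclusion in the knockdown library, which is 6.67% of them beside a background of 5.39% of all trios. With the added condition that the junction interval leaves out 0 in the same direction, 4 trios remained, all with higher inclusion in the knockdown library, or 3.81% beside 1.48% of all trios. These 4 were the Tra2a poison exon, the 64-nt exon of Srsf11 in a pair of trios, and a 9-nt donor segment of Srsf7. Most member trios are of the constitutive class, and 76 of the 105 had a PSI above 99% in both libraries. Of the 11 cassette-class trios 2 were called, where 14.9% of all cassette-class trios were. Srsf6, whose product belongs with those of Srsf4 and Srsf5 to the SR proteins with a pair of RNA recognition motifs, had 4 trios whose PSI did not differ between the libraries (0 points in each), and none of them was a noncoding exon.

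The 9-nt segment of Srsf7 (chr17:80603462-80603470) lies between alternative donors of a coding exon, and its length keeps the reading frame. It is in capitals here, with 18 bases on each side (chr17:80603444-80603488, minus strand), to show that both the segment and the intron after it begin with GTAT.
Srsf7, 9 nt: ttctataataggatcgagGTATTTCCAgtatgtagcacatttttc
The junction from the downstream donor had 1123 reads in the control and 977 in the knockdown library, and that from the upstream donor 1012 and 598. PSI was 52.5% and 62.3%, junction inclusion 52.6% and 62.0%, and the interval of the difference 6.22 to 12.61 points. With the largest counts over all trios it was 8.62 points (5.54 to 11.7). The background of called trios in the alternative donor class was 4.96%, and 1 of 7 alternative donor trios of these genes was called.

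Srsf5 has alternative donors in its first, noncoding exon. The donor 4 bases downstream of the first had a PSI of 72.7% in the control and 68.1% in the knockdown library. In the trio of this segment 1372 and 1085 reads were on its boundary with the exon, which holds no splice, and 25 and 11 on its splice junction. By the largest counts, this donor had 1447 and 1175 reads and the first donor 577 and 582, which is 71.5% and 66.9%, with an interval of the difference from -7.57 to -1.67 points. Another donor, 126 bases further on, had 141 reads in the control and 172 in the knockdown library against 1347 and 1074 for the middle donor, so its share was 9.48% and 13.8% with an interval of the difference from 1.92 to 6.78 points. Against the first donor, with 490 and 477 reads in that trio, its share was 23.7% and 26.7% and the interval, -1.68 to 7.77 points, includes 0. None of the Srsf5 trios changed by 5 points of PSI.

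A change of PSI was not always backed by junction reads. A 185-nt coding exon of Srsf1 had a PSI of 56.8% and 88.9% in one trio and 76.3% and 96.7% in another, yet its skipping junction had 0 reads in the control and 1 in the knockdown library, against 487 and 489 on its upstream junction. A 106-nt exon of Srsf2 had a PSI of 47.5% and 55.2% with 1 and 2 skipping reads. These 3 trios are the ones past 5 points that the junction reads did not bear out, and they are in the count of 7 above.

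An alternative upstream exon of Srsf4 was noticed after its values were seen. The junction from it to the next shared exon had 76 reads in the control and 86 in the knockdown library, against 354 and 267 for the junction from the first annotated exon. Its share was 17.7% and 24.4%, with an interval of the difference from 0.98 to 12.5 points. It is in no trio of the cassette class.

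The expression levels of the 10 genes differed between the libraries by less than 0.5 on the log2 scale when assembled transcripts or junction reads were counted, and RefSeq transcripts alone gave a wider spread. The RefSeq level is the read depth times length summed over the RefSeq transcripts of a gene, divided by the total of the library. By it, 3 of 10 genes were past an absolute log2 ratio of 0.5: Srsf5 was higher in the knockdown library (log2 ratio 0.76), and Srsf2 (-0.92) and Tra2a (-0.54) were lower. The background was 32.8% of 9052 genes past this fold in either direction and 13.8% lower. The median of the 10 genes was -0.22 beside 0.03 for all genes. With transcripts assembled in each library added, none of the 10 was past the fold and the log2 ratios of Srsf2, Srsf5 and Tra2a were -0.10, 0.01 and 0.01. With junction reads, none was past it either, where 18.3% of 8346 genes with at least 100 junction reads were, and the same 3 genes had -0.04, 0.02 and -0.02. As levels are shares of the library total, they do not measure the number of cells. A smaller share of cells expressing a gene and less of its RNA per cell cannot be told apart in such bulk samples.

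**Figure D3:**
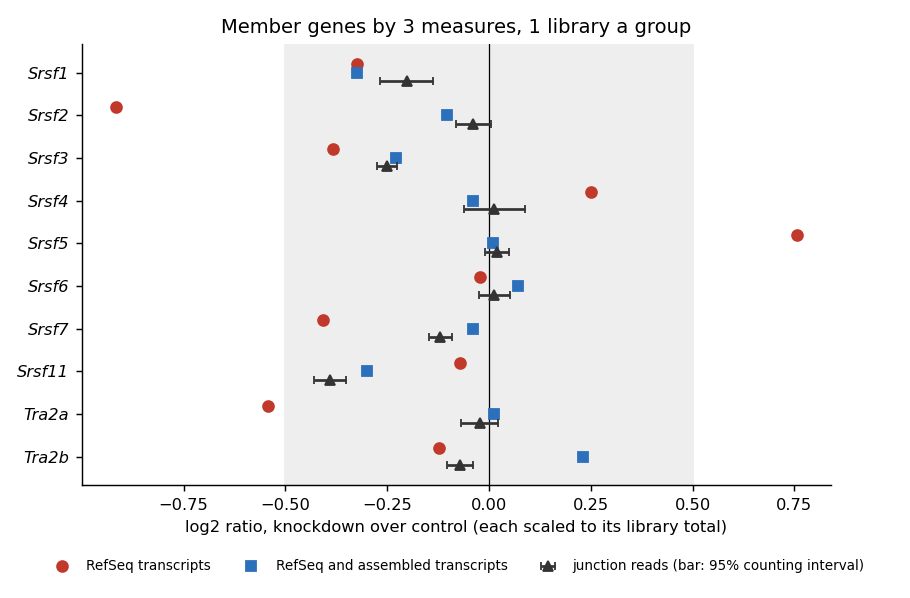
log2 ratio of the level in the knockdown over the control library (horizontal axis) for each gene by RefSeq transcripts (red circles), RefSeq and assembled transcripts (blue squares) and junction reads (black triangles, with 95% counting intervals). The grey band marks ratios under 0.5 in size, and the red circles of Srsf2, Srsf5 and Tra2a are the points outside it.

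The difference between the measures moved with the share of reads placed on assembled transcripts, which were built separately in each library. The length of a RefSeq transcript of Srsf2, of Srsf5 and of Tra2a also differed between the libraries, and length enters the RefSeq level. By summed FPKM of RefSeq transcripts, as a share of the library total, these genes had log2 ratios of -0.59, 0.72 and -0.38. How much each of these contributed was not tested. Assembled transcripts held 38.4% of the Srsf2 read depth in the control and 66.5% in the knockdown library, 49.1% and 27.7% of that of Srsf5, and 22.5% and 42.2% of that of Tra2a. For Srsf2 the RefSeq read depth, per base and per gigabase of the library, was 147 in the control and 94.3 in the knockdown library, and with assembled transcripts it was 239 and 281. By RefSeq depth Srsf2, Srsf3 (119 and 87.2) and Srsf1 (118 and 90.5) were the 3 genes with the highest control values, followed by Srsf6 (90.2 and 88.8) and Srsf7 (80.2 and 61.5). Srsf4 (24.8 and 29.5) and Srsf5 (23.8 and 38.1) had the lowest control values. With assembled transcripts the order was another, led by Srsf2, Srsf6 (181 and 160 in the control and knockdown library) and Srsf7 (131 and 130), and Srsf5 (46.7 and 52.6) was above Srsf4 (35.2 and 31.8). With 1 library a group, neighbours in this order cannot be told apart from their spread.

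By junction reads, Srsf11 had the lowest ratio of the 10 genes, with 14631 reads in the control and 8747 in the knockdown library, a log2 ratio of -0.39 (95% counting interval -0.43 to -0.35). Of its 16 junctions with at least 20 reads in each library 15 were lower in the knockdown library. Srsf3 followed with 36335 and 23935 reads and -0.25 (-0.27 to -0.23), Srsf1 with 4661 and 3176 reads and -0.20 (-0.27 to -0.14), and Srsf7 with 23760 and 17142 reads and -0.12 (-0.15 to -0.09). Tra2b had -0.07 and Tra2a -0.02, and Srsf4, Srsf5 and Srsf6 lay between 0.01 and 0.02. The median gene had a log2 ratio of 0.13 by junction reads, and all 10 genes were below it. By RefSeq transcripts 8 of the 10 were below the median gene. With assembled transcripts the median gene had 0.06, and Tra2b (0.23) and Srsf6 (0.07) were above it. With assembled transcripts Srsf11 had a log2 ratio of -0.30, against -0.07 by RefSeq transcripts alone.

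**Figure D4:**
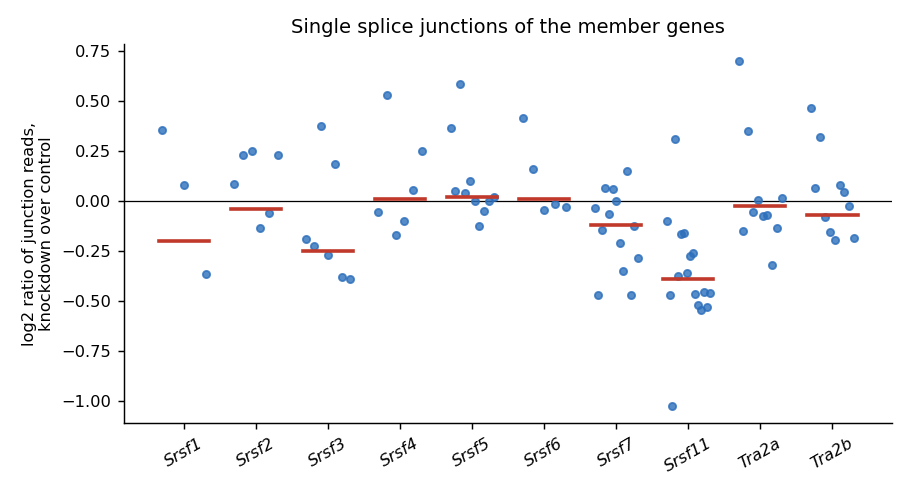
log2 ratio of reads on single splice junctions, knockdown over control (vertical axis), for each gene, with junctions from left to right in transcript order (blue points) and the ratio of all junction reads of the gene (red line). For Srsf11, 15 of 16 points are below 0, and the first junction of Srsf1 is above its last.

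Junctions of a gene did not share a single ratio. In Srsf1 the first junction had 487 and 489 reads (log2 ratio 0.36) and the last 3516 and 2140 (-0.36), so the gene's junction ratio rests on the last one. Among the 9 members with at least 5 junctions, 7 had a higher log2 ratio at the first junction than at the last. The median difference was 0.35. The first junctions of Tra2a (log2 ratio 0.70) and Tra2b (0.47) were the upstream junctions of their poison exons. That of Srsf5 (0.36) was the junction of its first donor. In these genes the difference therefore shares reads with the inclusion and donor results above and is not separate from them. Over 7576 genes with at least 5 junctions, 59.8% had a difference above 0, and the median was 0.08. The cause was not tested.

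Among related genes, the other SR family members Srsf9 and Srsf10 were not past the fold. Srsf9 had 100.2 and 71.3 ppm (log2 ratio -0.49, and -0.31 by junction reads) and Srsf10 196 and 172 (-0.19, and 0.04 by junction reads). Of 25 SR-related proteins, which share arginine- and serine-rich domains, 9 were past the fold by RefSeq transcripts, a share near the background of 32.8%, and by junction reads 0 were past it in either direction. Those higher by RefSeq transcripts were the U1-associated Luc7l2 (log2 ratio 1.45) and Luc7l3 (1.15), the 3′ splice site factor U2af1 (1.62) and Scaf1 (2.51). By junction reads these had -0.05, 0.08, -0.21 and 0.37, so Luc7l2 and U2af1 turned direction. Those lower were the speckle protein Son (-0.63), Acin1 (-0.66), Scaf8 (-1.04), Thrap3 (-0.97) and the cyclophilin Ppig (-1.38), which by junction reads had -0.06, 0.11, 0.12, -0.23 and -0.04, so Acin1 and Scaf8 turned direction. Their median was 0.10 by RefSeq transcripts and 0.11 by junction reads. Of the SR protein kinases and importers 8 of 11 were tested, with 1 higher (Clk2, 1.17) and 3 lower (Srpk1, -0.53, Srpk2, -1.49, and Prpf4b, -1.16) by RefSeq transcripts, and by junction reads again 0 were past the fold. The direction of Srpk2 turned to 0.27 with assembled transcripts and 0.43 by junction reads, and Prpf4b was at -0.01 and 0.01.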

How the data were processed

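The 2 libraries (1 for each group) were processed by the authors. Per the labels, CASAVA, TopHat and Cufflinks were run with the mm9 build, with versions not given in the sources used here. The deposited Cufflinks tables hold FPKM values and a coverage signal (mean read depth) for RefSeq and assembled transcripts, and the deposited assembly carries a transcript score. The FPKM scale was unusual, so FPKM was used only as shares of the library total. The deposited SpliceTrap tables hold an inclusion fraction before and after correction, junction read counts, and exon coverage for each trio. RefSeq transcripts were assigned to symbols by accession, else by exon overlap. Levels were shares of the summed coverage times length, and genes with at least 5 ppm of that total in either library were compared. Trios needed 20 reads in each library. Coding sequence, stops and sequences came from the NCBI m37 (mm9) genome and GENCODE annotation. Intervals were 95% Wilson and Newcombe. Threshold values were 5 points of PSI and a log2 ratio of 0.5, and no pseudocount was used. Python 3.11.15, pandas 2.3.3, scipy 1.17.1, pysam 0.24.0 and bedtools 2.31.1 were used, and the interval and ratio steps were tested on simulated data. All 10 members were named, list genes where past the fold, and trios where called, noncoding or retained. The remaining Srsf1, Srsf2, Srsf4 and Srsf5 segments were named after their values were seen. The family was listed by name, and it, the lists and the thresholds were chosen with earlier results of these data known.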

Additional observations from a re-analysis of the deposited data

How the results depend on the processing

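The median log2 ratio of the 10 genes, -0.22 by RefSeq transcripts, was -0.039 with assembled transcripts and -0.055 by junction reads, the latter chosen after seeing the data, and it moved by less than 0.1 with median-gene scaling, FPKM sums or a pseudocount. The count of genes past the fold, 3, was 6 at a threshold of 0.3, 0 at a threshold of 1, and 0 with assembled transcripts or junction reads. Srsf2 and Srsf5 fell under the fold by those measures, and Tra2a turned from -0.54 to 0.012 with assembled transcripts and was -0.38 by FPKM sums. Without a minimum level, 42.2% of all genes were past the fold in place of 32.8%. The count of 7 trios past 5 points was 4 at 10 points and 4 by junction inclusion. The count of 4 called trios was 2 at 10 points, and it was within 1.5 times of 4 with other read minimums, 1 trio for each segment, Fisher's exact test on the junction reads and the largest counts. The largest counts and the background of trios with at least 500 reads were also chosen after seeing the data. No poison exon changed direction between the inclusion ratio before correction, junction inclusion and the largest counts, nor did the retained intron of Srsf1 between the first 2, the largest counts not being run for it. No paired analysis was possible because each group has 1 library, so the groups share fewer than 2 replicate numbers. Reads of PCR-amplified libraries without molecular identifiers are not independent molecules, which the intervals do not cover.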
